A study of Mus musculus with 16 samples.

Results

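The 50 genes described here are an assembled list of genes known for the identity, junctions and signalling of endothelial cells, the cells that line blood vessels. Of these, 48 were found by symbol on the array, among 17097 genes in all, and each was read by the probe set that was brightest on average over the 16 arrays. Arhgef15 and Jag2 had no probe set of their own and were not analysed here. The list was followed across 4 treatment groups to see which of its genes moved with cabozantinib and which did not. It was chosen with earlier results of these data known. Its shares of calls are therefore descriptions beside those of all genes, not tests of the list.

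Tumours were grown from Hepa1-6, a mouse hepatoma cell line, injected under the skin of the flank of male C57BL/6 mice aged 5 weeks in 50% Matrigel, and treated from a volume of 200 to 300 cubic mm. The Placebo group (4 tumours) received hamster IgG at 10 mg/kg, the AntiPD1 group (3 tumours) the hamster antibody J43 against mouse PD1 at 10 mg/kg, the Cabozantinib group (5 tumours) an oral dose of 30 mg/kg each day, and the Combination group (4 tumours) both drugs. Injections were given in 5 doses, 3 days apart, and tumours were taken at day 14. The sources used here do not say whether IgG was injected in the Cabozantinib group too. All groups share 1 grafted cell line, a site outside the liver and a normal mouse host, whose vessels supply the graft. Each tumour gave 1 array of 50 ng of total RNA, so the tissue is bulk tumour, and fewer endothelial cells cannot be told apart from less of a transcript per cell.

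Cabozantinib is a kinase inhibitor whose targets include the VEGF receptors, MET and AXL. Endothelial cells are held together by VE-cadherin in adherens junctions and by claudin-5 in tight junctions, and their identity is kept by ETS factors such as ERG and FLI1 and by the SOX factors SOX7, SOX17 and SOX18. VEGF signalling, Notch signalling and flow adjust this programme in growing tumour vessels, and selectins and VCAM1 appear on vessels that recruit leukocytes.

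The arrays had medians between 4.92 and 5.13 on the deposited log2 scale, and no 2 were copies of each other (highest correlation 0.994). A gene whose mean stayed under 4.92 in a group is treated as not shown to be above background there. Of the 11 measured hepatoma genes 10 stood above that level in every group and Serpina1a in all but AntiPD1, and of the liver sinusoidal endothelial markers 5 of 7 (Stab2, Clec4g, Oit3, Bmp10 and Gata4) did not in any group. Some tumours had high signal of muscle or fat genes. Scores for skeletal muscle or fat, the mean log2 deviation of marker genes, exceeded 1 in AntiPD1 tumour 2, Cabozantinib tumours 2, 3 and 4, and Combination tumours 1, 2 and 4. Without those 7 arrays, all Placebo tumours, AntiPD1 tumours 1 and 3, Cabozantinib tumours 1 and 5 and Combination tumour 3 remained. Counts of calls from these arrays are given only for comparisons that leave out the Combination group, and where the count moved. Of the 48 genes, 5 (Tal1, Rasip1, Mmrn1, Gja5 and Sele) were not shown to be above background in any group.

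Cabozantinib was followed by lower signal of many of these genes, among them VE-cadherin and claudin-5 of the junctions and the transcription factor Sox18, while 30 were not called. Averaged over tumours without and with the antibody (the mean of Cabozantinib minus Placebo and Combination minus AntiPD1), 18 of the 48 genes fell and 0 rose (limma, Benjamini-Hochberg adjusted p below 0.05 over all 17097 genes). That is 37.5% of the list, where 2.12% of all genes were called, 1.26% lower and 0.86% higher. Since the list was chosen with earlier results of these data known, this contrast is no independent test of it. The largest falls were those of endomucin (Emcn), VE-cadherin (Cdh5), Sox18, Apold1 and claudin-5 (Cldn5). The median log2 difference over the 48 genes was -0.41, against 0.001 over all genes, and 39 of the 48 differences were negative, where 49.7% of all genes had a negative difference. Without the 7 arrays rich in muscle or fat, 9 arrays remained, with Combination tumour 3 alone in its group, so no count of calls is given. The 18 genes then had a median difference of -0.95, against -1.0 with all arrays, and a median SE of 0.186, against 0.145. All 18 differences stayed negative, but the genes had been chosen as lower on arrays that include these 9, so their signs are no independent check. With the muscle and fat scores as covariates and all 16 arrays, an alternative chosen after seeing the data, 20 genes fell, the 18 among them.

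**Figure D1:**
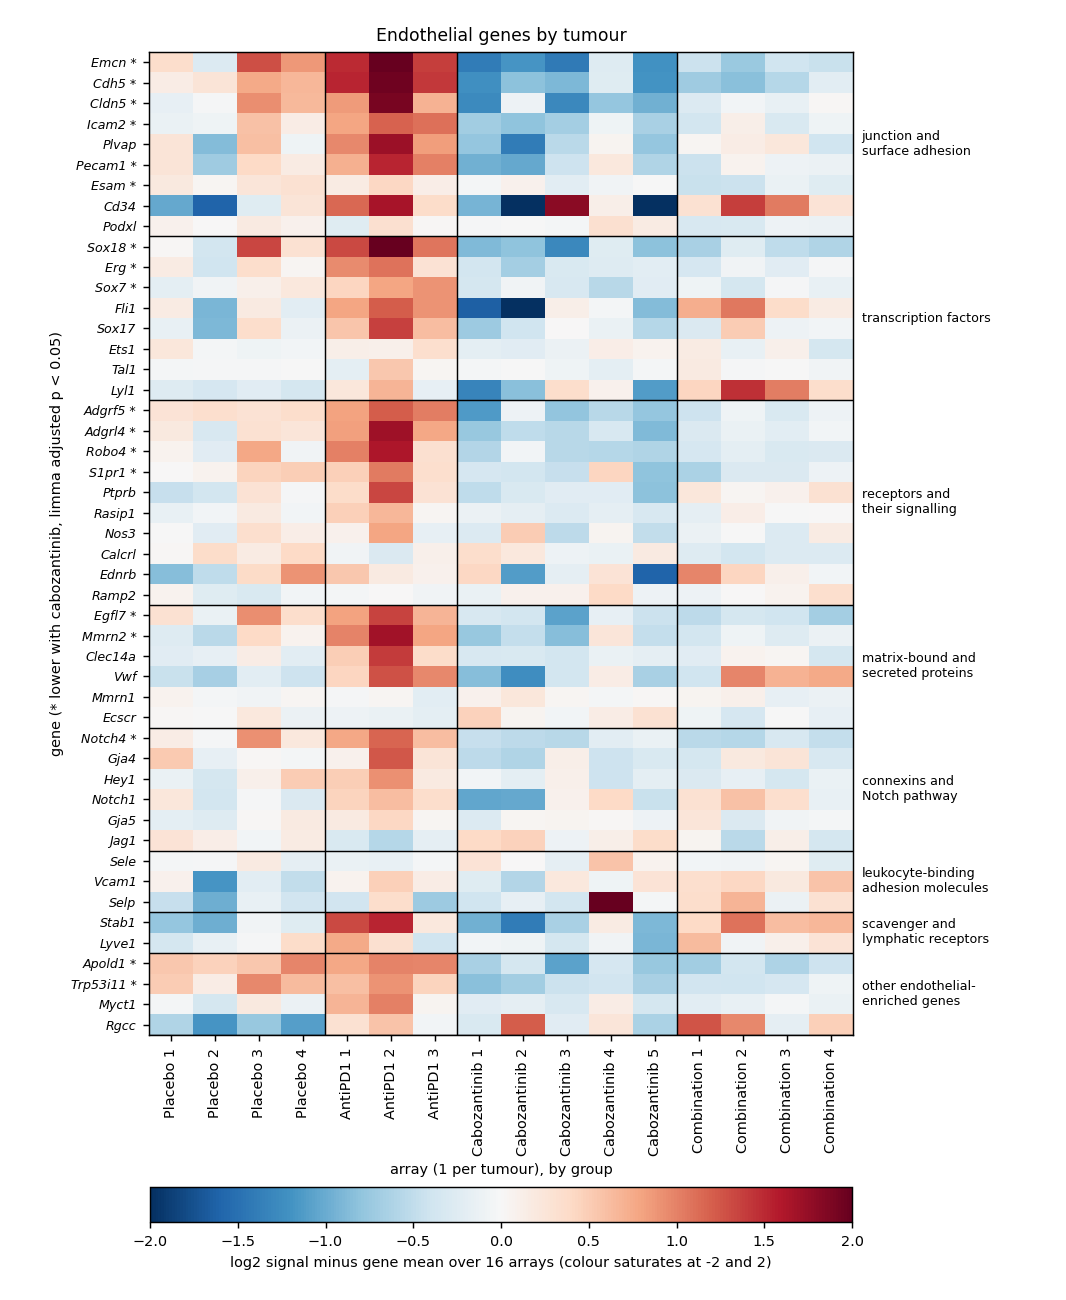
Log2 signal of the 48 endothelial genes (rows, by role) in the 16 tumours (columns, by group), as the deviation from each gene's mean over all arrays; colours saturate at -2 and 2. Genes with an asterisk were lower with cabozantinib, and most of them are blue in the 9 tumours treated with cabozantinib and red in the 3 AntiPD1 tumours.

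The promoters of the genes that fell most regularly are shown because members that move together may be read against the letters they carry. Of the 5 genes called lower both without and with the antibody, 4 have a promoter in the RefSeq set of build GRCm38.p6, and Rgcc, which did not fall, is printed as a contrast. Each runs from 250 bases before to 50 after the listed start, 5′ to 3′ on the gene's strand. Capitals mark matches on either strand to CAGGAA or CCGGAA (letters of ETS sites), AACAAT (SOX) and TGGGAA (RBPJ, the DNA-binding partner of Notch).
Emcn, chr3:137340828-137341127 (+ strand): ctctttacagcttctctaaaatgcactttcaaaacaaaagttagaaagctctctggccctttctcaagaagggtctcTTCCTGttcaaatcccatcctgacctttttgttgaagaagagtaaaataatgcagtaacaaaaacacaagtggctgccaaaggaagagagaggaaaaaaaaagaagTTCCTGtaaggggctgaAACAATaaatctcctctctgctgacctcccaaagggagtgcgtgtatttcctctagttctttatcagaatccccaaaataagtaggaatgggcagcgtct
Adgrf5, chr17:43360181-43360480 (+ strand): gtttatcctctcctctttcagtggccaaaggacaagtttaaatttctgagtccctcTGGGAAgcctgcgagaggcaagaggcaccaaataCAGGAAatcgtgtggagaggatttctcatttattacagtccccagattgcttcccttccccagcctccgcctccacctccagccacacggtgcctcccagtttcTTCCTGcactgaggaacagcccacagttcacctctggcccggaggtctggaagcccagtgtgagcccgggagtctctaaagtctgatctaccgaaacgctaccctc
Apold1, chr6:134981751-134982050 (+ strand): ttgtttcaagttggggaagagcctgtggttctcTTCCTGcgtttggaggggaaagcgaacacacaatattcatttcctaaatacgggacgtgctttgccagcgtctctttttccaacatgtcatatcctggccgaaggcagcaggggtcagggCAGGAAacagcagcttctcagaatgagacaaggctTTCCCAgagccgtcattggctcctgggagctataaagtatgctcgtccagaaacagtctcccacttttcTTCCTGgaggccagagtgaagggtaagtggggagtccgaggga
Trp53i11, chr2:93187298-93187597 (+ strand): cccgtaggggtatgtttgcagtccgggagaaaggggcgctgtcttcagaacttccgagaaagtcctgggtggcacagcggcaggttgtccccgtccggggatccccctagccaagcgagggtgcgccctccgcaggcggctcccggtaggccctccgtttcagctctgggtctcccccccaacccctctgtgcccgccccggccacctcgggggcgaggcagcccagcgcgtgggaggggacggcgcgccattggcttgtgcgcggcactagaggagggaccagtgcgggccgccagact
Rgcc, chr14:79301586-79301885 (- strand): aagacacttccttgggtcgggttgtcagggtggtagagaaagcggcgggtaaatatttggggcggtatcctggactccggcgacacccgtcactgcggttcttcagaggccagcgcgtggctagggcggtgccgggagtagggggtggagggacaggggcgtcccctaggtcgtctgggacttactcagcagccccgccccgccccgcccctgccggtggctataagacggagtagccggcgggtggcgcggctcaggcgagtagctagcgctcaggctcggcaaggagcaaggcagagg
Among the 48 genes, 27 had such a promoter. CAGGAA stood in 6 of the 10 promoters of genes that fell, in 11 of the 17 of genes that were not called and in 30.4% of all 27025 promoters compared. The promoters compared are those of the first listed start of each gene, and they leave out 1 chromosome. CCGGAA stood in 1 of 10, 1 of 17 and 15.2%. AACAAT stood in 1 of 10, 2 of 17 and 10.9%, and TGGGAA in 4 of 10, 3 of 17 and 25.5%. The shares of the list were thus above the share of all promoters for CAGGAA and below it for CCGGAA. These are letter matches, not measured binding.

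The junction and surface adhesion genes held the most calls, 6 of 9 measured, with a median log2 difference of -0.91 and all 9 differences negative. This count and those of the other roles below stand beside 1.26% of all genes called lower. Emcn encodes endomucin, a sialomucin of capillary and venous endothelium. Its log2 signal was 6.89, 6.27, 7.82 and 7.41 in the Placebo tumours, 8.04, 8.92 and 7.92 in the AntiPD1 tumours, 5.14, 5.36, 5.12, 6.28 and 5.33 in the Cabozantinib tumours and 6.11, 5.79, 6.14 and 6.10 in the Combination tumours. Combination tumours all lay below AntiPD1 tumours, and 4 of 5 Cabozantinib tumours lay below all Placebo tumours, the exception being Cabozantinib tumour 4. The averaged log2 difference was -1.95 ± 0.23 (SE), a 3.88-fold fall (adjusted p = 0.000823).

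Cdh5 encodes VE-cadherin, the adhesion protein of endothelial adherens junctions. Its log2 signal was 6.01, 6.11, 6.62 and 6.53 in the Placebo tumours, 7.39, 7.81 and 7.28 in the AntiPD1 tumours, 4.64, 5.05, 4.96, 5.62 and 4.67 in the Cabozantinib tumours and 5.14, 5.04, 5.29 and 5.65 in the Combination tumours. All 9 tumours given cabozantinib lay below all 7 others. The averaged log2 difference was -1.77 ± 0.15, a 3.42-fold fall (adjusted p = 3.62e-05). This complete separation held for 6 of the 48 genes (Cdh5, Adgrf5, Egfl7, Notch4, Apold1 and Trp53i11), 12.5% of the list, where 0.292% of all genes showed it.

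Cldn5, the main claudin of endothelial tight junctions, had log2 signals of 5.54, 5.68, 6.63 and 6.35 in the Placebo tumours, 6.55, 7.59 and 6.39 in the AntiPD1 tumours, 4.43, 5.59, 4.40, 4.93 and 4.75 in the Cabozantinib tumours and 5.42, 5.64, 5.55 and 5.72 in the Combination tumours. Of the Cabozantinib tumours, tumour 2 reached into the Placebo range, as did Combination tumours 2, 3 and 4, and no Combination tumour reached the AntiPD1 range. The difference was -1.25 ± 0.22 (adjusted p = 0.0114), from a Cabozantinib group mean (4.82) that was not shown to be above background. Icam2, an adhesion molecule that binds the leukocyte integrin LFA, read 6.90, 6.95, 7.62 and 7.19 in the Placebo tumours, 7.83, 8.22 and 8.14 in the AntiPD1 tumours, 6.34, 6.23, 6.36, 6.95 and 6.39 in the Cabozantinib tumours and 6.67, 7.15, 6.73 and 6.95 in the Combination tumours. Here Cabozantinib tumour 4 overlapped the Placebo group and the Combination and AntiPD1 groups were apart. Its difference was -0.95 ± 0.13 (adjusted p = 0.00177).

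Pecam1 (the endothelial antigen CD31) also fell (difference -0.91 ± 0.20, adjusted p = 0.0326), with 2 of 5 Cabozantinib tumours below all Placebo tumours. Its call was lost on leaving out any 1 of Placebo tumours 3 and 4, AntiPD1 tumours 2 and 3, Cabozantinib tumour 1 and Combination tumours 1, 3 and 4. Esam, an immunoglobulin-family molecule of tight junctions, had the smallest fall of the 18. Its log2 signal was 9.78, 9.63, 9.82 and 9.88 in the Placebo tumours, 9.75, 10.01 and 9.72 in the AntiPD1 tumours, 9.54, 9.67, 9.38, 9.52 and 9.58 in the Cabozantinib tumours and 9.13, 9.15, 9.44 and 9.34 in the Combination tumours. One Cabozantinib tumour, tumour 2, overlapped the Placebo group and no Combination tumour overlapped the AntiPD1 group. The difference was -0.40 ± 0.066 (adjusted p = 0.00809).

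The other 3 surface genes were not called. Plvap, which forms the diaphragms of fenestrae and caveolae, had a difference of -0.91 ± 0.23 with a 95% interval of -1.41 to -0.42 and an adjusted p of 0.0582, so it missed the threshold narrowly. Podxl (podocalyxin), also made by podocytes, read 7.92, 7.84, 8.01 and 7.92 in the Placebo tumours, 7.59, 8.15 and 7.85 in the AntiPD1 tumours, 7.81, 7.83, 7.79, 8.16 and 7.99 in the Cabozantinib tumours and 7.51, 7.53, 7.73 and 7.71 in the Combination tumours. Its groups overlapped in both cabozantinib comparisons, and its interval of -0.30 to 0.046 does not reach the size of the fall in Emcn or Cdh5. Cd34, a sialomucin shared with blood progenitors, spread widely, at 6.32, 5.73, 7.11 and 7.59 in the Placebo tumours, 8.50, 8.99 and 7.71 in the AntiPD1 tumours, 6.41, 4.96, 9.15, 7.46 and 5.18 in the Cabozantinib tumours and 7.65, 8.72, 8.38 and 7.61 in the Combination tumours. Cabozantinib tumours held both the highest and the lowest values of all 16, and the interval ran from -1.32 to 0.96.

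**Figure D2:**
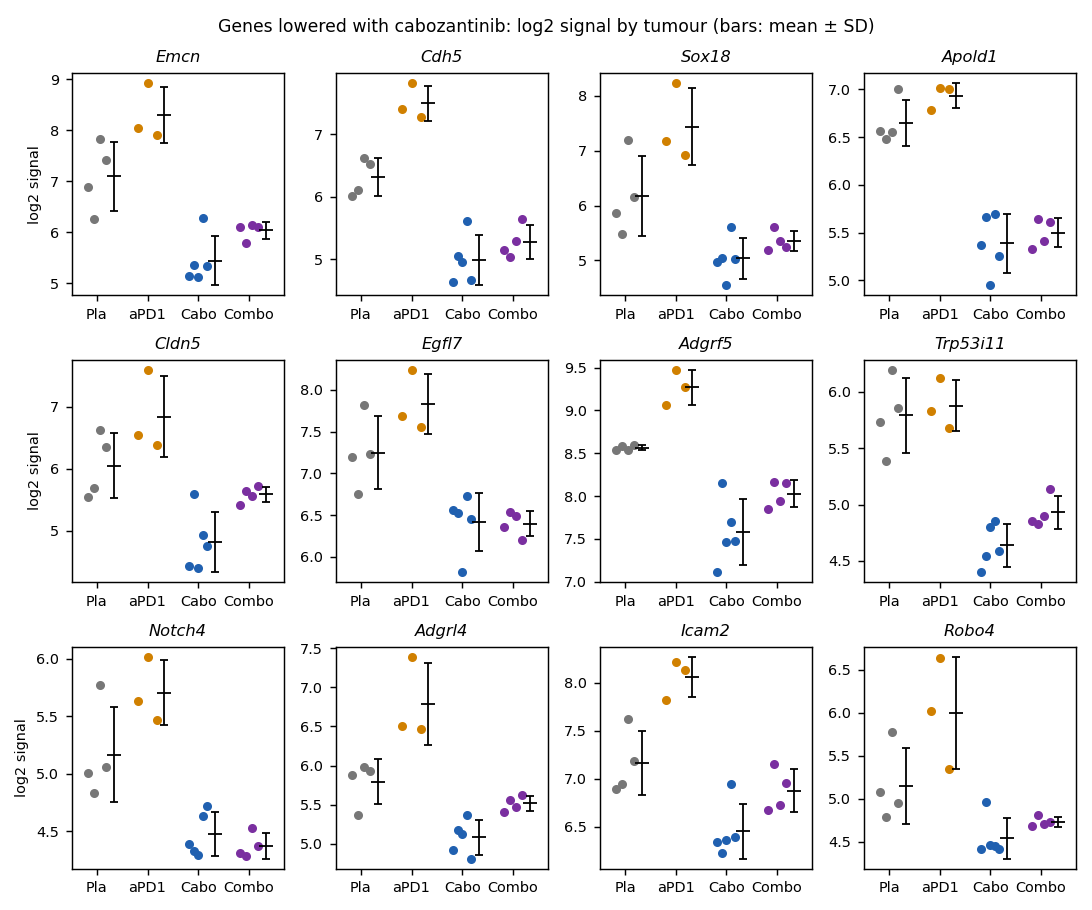
Log2 signal (vertical axes, each with its own range) of the 12 called genes with the largest falls, 1 point per tumour, with mean and SD bars, for Placebo (Pla), AntiPD1 (aPD1), Cabozantinib (Cabo) and Combination (Combo). In Cdh5, Egfl7, Adgrf5, Apold1, Trp53i11 and Notch4, all 9 tumours given cabozantinib lie below the other 7.

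Among the transcription factors 3 of 8 fell, Sox18, Erg and Sox7, with a median difference of -0.51 over the 8. Sox18, a SOX factor of blood and lymphatic vessels, read 5.87, 5.48, 7.19 and 6.15 in the Placebo tumours, 7.17, 8.23 and 6.92 in the AntiPD1 tumours, 4.97, 5.04, 4.55, 5.60 and 5.02 in the Cabozantinib tumours and 5.19, 5.60, 5.35 and 5.25 in the Combination tumours. Cabozantinib tumour 4 and Combination tumour 2 overlapped the Placebo group, and the Combination tumours all lay below the AntiPD1 tumours. The difference was -1.61 ± 0.24, a 3.06-fold fall (adjusted p = 0.00354). Erg, the ETS factor that sustains endothelial gene expression, fell as well (difference -0.67 ± 0.13, adjusted p = 0.0153), as did Sox7 (-0.59 ± 0.091, adjusted p = 0.00448). Both had means under 4.92 in the Placebo group as well, at 4.63 ± 0.31 and 4.64 ± 0.18 (SD, n = 4), so their falls were read from near the floor of the array.

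The third SOX factor of vessels, Sox17, was not called, at -0.49 ± 0.19 (adjusted p = 0.203), with an interval of -0.89 to -0.089. Its means in the Placebo (4.70) and Cabozantinib (4.54) groups were under 4.92. A dimmer probe set of Sox17 did pass the threshold, at -0.56 (adjusted p = 0.027 in a fit over all probe sets), so its probe sets disagree on the call. Ets1, an ETS factor also of lymphocytes, read 9.90, 9.64, 9.59 and 9.62 in the Placebo tumours, 9.79, 9.78 and 10.02 in the AntiPD1 tumours, 9.48, 9.46, 9.56, 9.80 and 9.75 in the Cabozantinib tumours and 9.84, 9.52, 9.78 and 9.32 in the Combination tumours. Its groups overlapped throughout and its interval was -0.35 to 0.022. Fli1 and Lyl1 are shared with blood cells. Lyl1 read 5.24, 5.16, 5.26 and 5.14 in the Placebo tumours, 5.72, 6.17 and 5.33 in the AntiPD1 tumours, 4.17, 4.66, 5.85, 5.57 and 4.37 in the Cabozantinib tumours and 5.93, 6.95, 6.52 and 5.85 in the Combination tumours. The Cabozantinib group spread on both sides of the narrow Placebo group, and the averaged difference was 0.15 ± 0.25 (adjusted p = 0.836). Fli1 had -0.54 ± 0.30 (adjusted p = 0.404), with an interval of -1.17 to 0.10. Tal1, a partner of LYL1 in blood and vessel development, ran from 4.18 to 4.37 in the Cabozantinib group and was not shown to be above background.

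Of the 10 measured receptors and signalling genes 4 fell, with a median of -0.34. Adgrf5, an adhesion G protein-coupled receptor of capillary endothelium, read 8.54, 8.59, 8.54 and 8.60 in the Placebo tumours, 9.06, 9.47 and 9.27 in the AntiPD1 tumours, 7.12, 8.15, 7.46, 7.70 and 7.47 in the Cabozantinib tumours and 7.85, 8.17, 7.95 and 8.15 in the Combination tumours. The Placebo tumours lay within a very narrow range, and all tumours given cabozantinib lay below it. The difference was -1.11 ± 0.12, a 2.16-fold fall (adjusted p = 0.000331). Adgrl4, a related receptor of growing vessels, read 5.88, 5.37, 5.99 and 5.93 in the Placebo tumours, 6.50, 7.39 and 6.47 in the AntiPD1 tumours, 4.93, 5.18, 5.13, 5.37 and 4.81 in the Cabozantinib tumours and 5.40, 5.55, 5.47 and 5.63 in the Combination tumours. Cabozantinib tumour 4 matched the lowest Placebo tumour, and the Combination group lay below the AntiPD1 group. Its difference was -0.99 ± 0.14 (adjusted p = 0.00211).

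Robo4, a roundabout receptor that stabilises vessels, read 5.08, 4.79, 5.78 and 4.95 in the Placebo tumours, 6.02, 6.64 and 5.34 in the AntiPD1 tumours, 4.42, 4.96, 4.46, 4.45 and 4.41 in the Cabozantinib tumours and 4.68, 4.81, 4.71 and 4.73 in the Combination tumours. Cabozantinib tumour 2 and Combination tumour 2 reached into the Placebo range, and no Combination tumour reached the AntiPD1 range. Its difference was -0.94 ± 0.17 (adjusted p = 0.0135), with both cabozantinib group means under 4.92. S1pr1, the receptor for sphingosine phosphate that strengthens junctions, fell (difference -0.75 ± 0.16, adjusted p = 0.0296). That call was lost on leaving out any 1 of Placebo tumours 3 and 4, AntiPD1 tumours 1 and 2 and Combination tumours 1, 2 and 3.

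The 2 subunits of the adrenomedullin receptor were not called. Calcrl, the receptor protein itself, read 9.72, 10.05, 9.85 and 10.08 in the Placebo tumours, 9.62, 9.39 and 9.79 in the AntiPD1 tumours, 10.04, 9.90, 9.58, 9.56 and 9.87 in the Cabozantinib tumours and 9.44, 9.33, 9.42 and 9.42 in the Combination tumours. The Placebo and Cabozantinib tumours overlapped, and the interval of the averaged difference was -0.35 to 0.013. Ramp2, the subunit that pairs with CALCRL, read 12.38, 12.07, 11.99 and 12.24 in the Placebo tumours, 12.27, 12.30 and 12.23 in the AntiPD1 tumours, 12.17, 12.39, 12.39, 12.71 and 12.20 in the Cabozantinib tumours and 12.21, 12.31, 12.37 and 12.63 in the Combination tumours, with an averaged difference of 0.16 ± 0.087 (adjusted p = 0.404). A dimmer probe set of Ramp2 gave -0.63 (adjusted p = 0.141), so the direction of Ramp2 differed between its probe sets. Ednrb, an endothelin receptor, read 5.15, 5.50, 6.38 and 6.91 in the Placebo tumours, 6.55, 6.19 and 6.09 in the AntiPD1 tumours, 6.42, 4.88, 5.83, 6.28 and 4.41 in the Cabozantinib tumours and 6.97, 6.44, 6.10 and 5.95 in the Combination tumours, and no pair of groups was apart in the cabozantinib comparisons. Ptprb, the endothelial phosphatase that binds VE-cadherin and TIE receptors, had -0.39 ± 0.16 (adjusted p = 0.229), and Nos3, the endothelial nitric oxide synthase, -0.25 ± 0.17 (adjusted p = 0.496). Rasip1, a partner of RAP proteins in lumen formation, had -0.29 ± 0.082 (adjusted p = 0.0814) near background.

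Among 6 matrix-bound, secreted or surface proteins 2 fell. Egfl7, a secreted protein of the vessel matrix, read 7.19, 6.75, 7.82 and 7.23 in the Placebo tumours, 7.69, 8.23 and 7.56 in the AntiPD1 tumours, 6.56, 6.52, 5.82, 6.72 and 6.46 in the Cabozantinib tumours and 6.36, 6.54, 6.49 and 6.21 in the Combination tumours. The 9 tumours given cabozantinib all lay below the other 7, though the highest of them and the lowest Placebo tumour were nearly equal. The difference was -1.13 ± 0.16, a 2.19-fold fall (adjusted p = 0.00242), and the other 2 probe sets of Egfl7 also fell (-0.86 and -0.64). Mmrn2, a matrix ligand of CD93 and CLEC14A, fell (difference -0.87 ± 0.18, adjusted p = 0.0234). Leaving out Placebo tumour 3, Placebo tumour 4 or Combination tumour 3 lost the call of Mmrn2. Clec14a itself missed the threshold, at -0.51 ± 0.13 (adjusted p = 0.0593). Its mean was above background in the AntiPD1 group alone (5.13), against 4.26 in Placebo, 4.11 in Cabozantinib and 4.27 in Combination tumours.

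Vwf, Ecscr and Mmrn1 were not called. Vwf encodes von Willebrand factor, which endothelium shares with platelets. It read 5.27, 5.05, 5.50 and 5.30 in the Placebo tumours, 6.15, 6.98 and 6.67 in the AntiPD1 tumours, 4.85, 4.46, 5.34, 5.86 and 5.07 in the Cabozantinib tumours and 5.32, 6.69, 6.40 and 6.47 in the Combination tumours. The Cabozantinib group lay on both sides of the Placebo group, and Combination tumour 1 stood below the AntiPD1 group while the other 3 overlapped it. Its interval was -0.74 to 0.20. Ecscr, an endothelial surface regulator of migration, read 10.28, 10.24, 10.47 and 10.14 in the Placebo tumours, 10.16, 10.12 and 10.06 in the AntiPD1 tumours, 10.72, 10.31, 10.19, 10.41 and 10.55 in the Cabozantinib tumours and 10.17, 9.92, 10.24 and 10.09 in the Combination tumours, with an interval of -0.094 to 0.24. Mmrn1, a multimerin of platelets and endothelium, was not shown to be above background, with a difference of 0.056 ± 0.057.

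In the connexin and Notch group 1 of 6 fell. Notch4, the Notch receptor most restricted to endothelium, read 5.0, 4.83, 5.77 and 5.06 in the Placebo tumours, 5.63, 6.01 and 5.47 in the AntiPD1 tumours, 4.38, 4.33, 4.29, 4.63 and 4.72 in the Cabozantinib tumours and 4.31, 4.28, 4.53 and 4.37 in the Combination tumours. All tumours given cabozantinib lay below all others. The difference was -1.01 ± 0.13 (adjusted p = 0.00125), with both cabozantinib group means under 4.92. Its other 2 probe sets were near background with differences of 0.056 and 0.012. Notch1, a receptor shared by many cell types, read 8.26, 7.67, 8.02 and 7.75 in the Placebo tumours, 8.49, 8.65 and 8.40 in the AntiPD1 tumours, 7.0, 7.01, 8.12, 8.44 and 7.60 in the Cabozantinib tumours and 8.34, 8.62, 8.38 and 7.89 in the Combination tumours, with an interval of -0.68 to 0.18. Jag1, a Notch ligand, read 9.19, 9.05, 8.86 and 9.08 in the Placebo tumours, 8.61, 8.35 and 8.74 in the AntiPD1 tumours, 9.31, 9.37, 8.81, 9.03 and 9.27 in the Cabozantinib tumours and 8.97, 8.38, 9.03 and 8.56 in the Combination tumours, with an interval of -0.10 to 0.38. The Notch target Hey1 missed the threshold at -0.47 ± 0.13 (adjusted p = 0.0712), as did the arterial connexin gene Gja4 at -0.51 ± 0.18 (adjusted p = 0.155). Gja5, the other arterial connexin gene, was near background at -0.12 ± 0.092.

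The 3 leukocyte-binding adhesion molecules were the only group of roles without a negative averaged difference, and none was called. Vcam1, which holds leukocytes through an integrin and is also made by stromal cells and macrophages, read 8.89, 7.63, 8.60 and 8.30 in the Placebo tumours, 8.87, 9.29 and 8.95 in the AntiPD1 tumours, 8.55, 8.22, 9.02, 8.72 and 9.08 in the Cabozantinib tumours and 9.14, 9.22, 9.0 and 9.38 in the Combination tumours. Its Placebo and Cabozantinib tumours overlapped and its averaged difference was 0.26 ± 0.17 (adjusted p = 0.497). Selp, P-selectin of endothelium and platelets, read 4.93, 4.41, 5.25 and 5.01 in the Placebo tumours, 5.02, 5.75 and 4.67 in the AntiPD1 tumours, 4.99, 5.24, 5.02, 7.88 and 5.36 in the Cabozantinib tumours and 5.75, 6.08, 5.29 and 5.70 in the Combination tumours. Cabozantinib tumour 4 stood far above the other 15 tumours, and the difference of 0.68 ± 0.36 (adjusted p = 0.385) became 0.40 ± 0.17 (adjusted p = 0.252) without it. Sele, E-selectin, was not shown to be above background, with 0.093 ± 0.093.

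Neither receptor of the scavenger and lymphatic group was called. Stab1, a scavenger receptor that sinusoidal endothelium shares with macrophages, read 5.98, 5.77, 6.69 and 6.51 in the Placebo tumours, 8.07, 8.28 and 6.96 in the AntiPD1 tumours, 5.79, 5.35, 6.11, 6.91 and 5.85 in the Cabozantinib tumours and 7.15, 7.84, 7.37 and 7.42 in the Combination tumours. The Cabozantinib tumours overlapped the Placebo tumours and the Combination tumours overlapped the AntiPD1 tumours, while both antibody groups lay above both groups without it. Its averaged difference with cabozantinib was -0.28 ± 0.24 (interval -0.79 to 0.23). Lyve1, a hyaluronan receptor of lymphatic vessels, had -0.12 ± 0.18 (adjusted p = 0.8).

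Of the other 4 endothelial-enriched genes 2 fell. Apold1, a protein induced in endothelium by stress and growth signals, read 6.56, 6.47, 6.55 and 7.0 in the Placebo tumours, 6.79, 7.01 and 7.0 in the AntiPD1 tumours, 5.37, 5.67, 4.95, 5.69 and 5.26 in the Cabozantinib tumours and 5.33, 5.65, 5.41 and 5.61 in the Combination tumours. All tumours given cabozantinib lay below all others by a wide margin. The difference was -1.35 ± 0.11, a 2.55-fold fall, with the smallest adjusted p of the list (2.57e-05). Trp53i11, a gene first described as a p53 target, read 5.74, 5.38, 6.19 and 5.86 in the Placebo tumours, 5.83, 6.12 and 5.68 in the AntiPD1 tumours, 4.40, 4.54, 4.80, 4.86 and 4.59 in the Cabozantinib tumours and 4.85, 4.83, 4.90 and 5.14 in the Combination tumours. The separation was again complete, with a difference of -1.05 ± 0.11 (adjusted p = 0.000328), from a Cabozantinib group mean (4.64) under 4.92, so the floor of the array limits this value. Myct1, an endothelial membrane protein, missed the threshold on its brightest probe set, at -0.41 ± 0.12 (adjusted p = 0.103), while 2 dimmer sets passed it (-0.48 and -0.83). Rgcc, a cell cycle regulator induced by complement, had a positive difference. It read 6.97, 6.40, 6.82 and 6.46 in the Placebo tumours, 7.87, 8.14 and 7.52 in the AntiPD1 tumours, 7.26, 8.77, 7.35, 7.81 and 6.93 in the Cabozantinib tumours and 8.83, 8.52, 7.39 and 8.05 in the Combination tumours. Of 5 Cabozantinib tumours 4 lay above every Placebo tumour, and the averaged difference was 0.66 ± 0.26 with an interval of 0.11 to 1.21 and an adjusted p of 0.212, so it was not called.

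**Figure D3:**
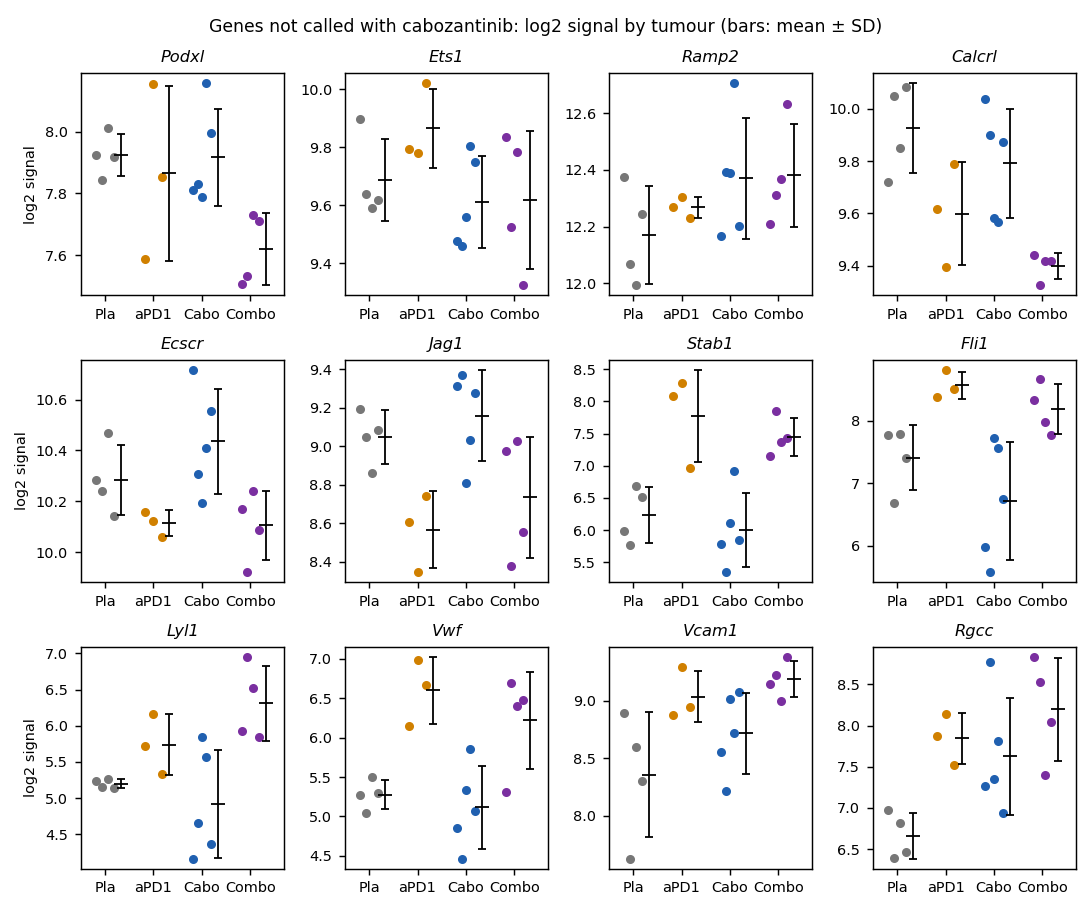
Log2 signal (vertical axes, each with its own range) of 12 genes that were not called with cabozantinib, 1 point per tumour, with mean and SD bars, for Placebo (Pla), AntiPD1 (aPD1), Cabozantinib (Cabo) and Combination (Combo). The Cabozantinib and Placebo points overlap in every panel, and in Stab1 and Fli1 the Combination points all lie above the Cabozantinib points.

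The genes that were not called differ in how firmly a fall is bounded. Of the 30, 25 had signal above background in some group. In 22 of these 25 the 95% interval of the averaged difference lay above -1, and in 10 it lay above -0.5. The interval included 0 in 17 and lay wholly below 0 in 7. Podxl, Ets1, Calcrl, Ecscr, Jag1 and Ramp2 thus had intervals that leave out the fitted size of each of the 18 falls, whose median was -1.0. Plvap, Clec14a, Hey1 and Myct1 had intervals wholly below 0 and cannot be placed with them. Mean log2 signals of Podxl, Ets1, Calcrl, Ecscr, Jag1 and Ramp2 ran from 7.8 to 12.3, against 5.9 for Cdh5 and 6.5 for Emcn. Esam (9.6) and Adgrf5 (8.3), which were called, also lay in that range. Which cells of the bulk tumour gave these signals was not tested. The interval of Clec14a rests on a gene above background in the AntiPD1 group alone. Among the 25, Sox17, Nos3, Gja4, Hey1, Lyve1 and Myct1 also had the mean of a cabozantinib group under 4.92. The floor of the array thus limits how far these intervals bound a fall.

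**Figure D4:**
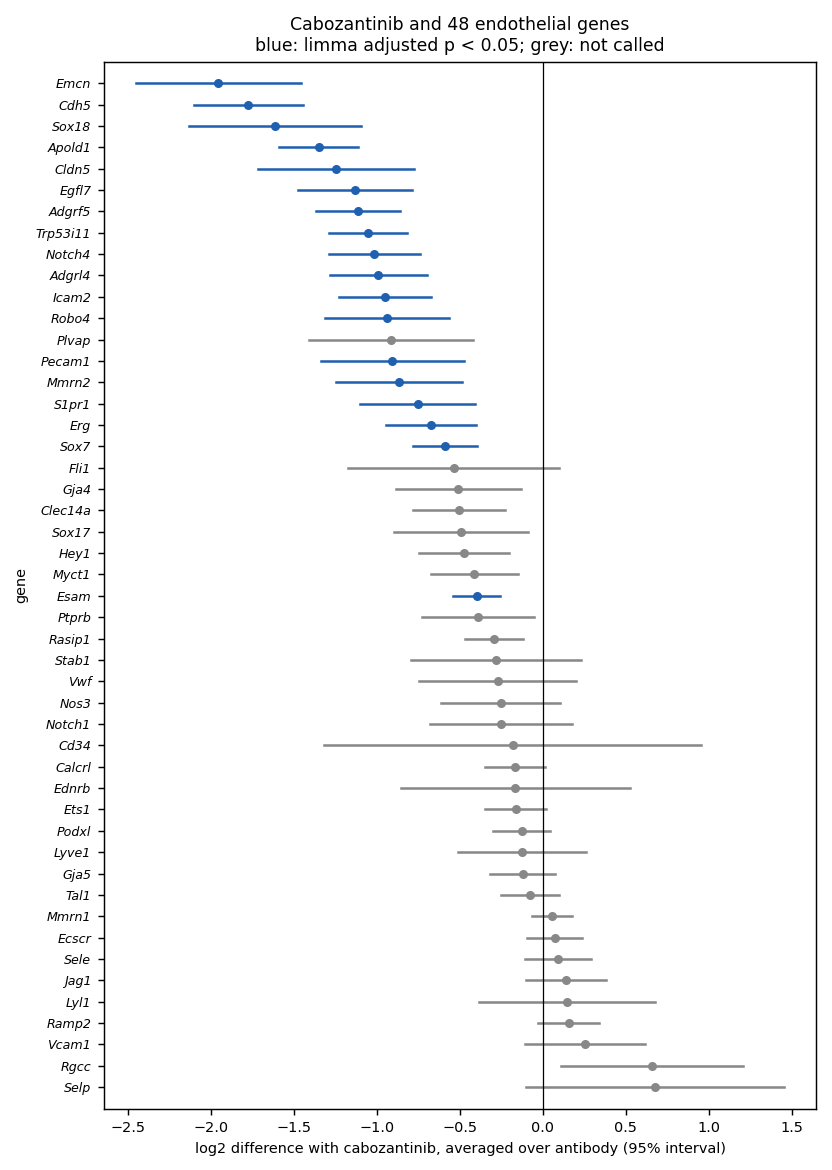
Log2 difference with cabozantinib averaged over the antibody (horizontal axis), with 95% intervals, for the 48 genes (vertical axis) in order of size. The 18 genes in blue, from Emcn at -1.95 to Esam at -0.40, passed the limma threshold, and the grey genes did not.

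Without the antibody, Cabozantinib against Placebo, 5 genes fell and 0 rose, 10.4% of the list, where 0.257% of all genes were called. They were Emcn (-1.65 ± 0.30, adjusted p = 0.0381), Cdh5 (-1.33 ± 0.20, adjusted p = 0.0142), Apold1 (-1.26 ± 0.15, adjusted p = 0.00409), Trp53i11 (-1.16 ± 0.15, adjusted p = 0.00546) and Adgrf5 (-0.99 ± 0.16, adjusted p = 0.0169). The median difference over the 48 genes was -0.27. Groups were apart with Cabozantinib lower in 6 genes, 12.5% of the list against 2.54% of all genes, and with Cabozantinib higher in 0, against 1.97%. The count of calls was 2 without Placebo tumour 3 or without Placebo tumour 4, 3 without the arrays rich in muscle or fat, and 0 when the fit used the arrays of these 2 groups alone.

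In the presence of the antibody, Combination against AntiPD1, 12 genes fell and 0 rose, 25% of the list, where 0.234% of all genes were called. These 12 made up 30.8% of the 39 genes called lower across the whole array. The list made up 8.37% of the 215 called lower with cabozantinib averaged and 20% of the 25 for Cabozantinib against Placebo. For Combination against Placebo it was 0.704% of 1136. The 12 genes were the same 5 and Sox18, Egfl7, Notch4, Adgrl4, Icam2, Sox7 and Esam. Here the median difference was -0.53, and Emcn and Cdh5 had differences of -2.26 ± 0.35 (adjusted p = 0.0139) and -2.21 ± 0.23 (adjusted p = 0.000489). Groups were apart with Combination lower in 23 genes, 47.9% of the list against 4.42% of all genes, and with Combination higher in 0, against 4.25%. The count depended on AntiPD1 tumour 2, which had the highest muscle score of its group (4.35) and the highest signal of its group in 40 of the 48 genes. Without it 2 genes were called. Without Combination tumours 1, 2 and 3 in turn the counts were 6, 5 and 7, and with the 7 arrays of these groups alone the count was 7. Without the arrays rich in muscle or fat, Combination tumour 3 stood alone in its group, so no count is given.

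These comparisons share no array. Both differences were negative in 36 of the 48 genes (75%, against 32.7% of all genes), both were positive in 7 and the signs were opposite in 5. Across the 48 genes the differences correlated with r = 0.849, a description over genes, which are not independent replicates (0.608 over all 17097 genes). The estimated fall was larger with the antibody in 17 of the 18 genes that fell, for example -1.33 without and -2.21 with it for Cdh5. The interaction of the drugs was tested directly, and limma called 0 of the 48 genes and 0 of all genes. At an unadjusted p below 0.05 there were 8 genes of the list, all lower, 16.7% against 2.57% of all genes. The interaction estimates were -0.88 ± 0.31 for Cdh5, -0.60 ± 0.46 for Emcn and -0.99 ± 0.36 for Mmrn2 (adjusted p = 1.0 for each).

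**Figure D5:**
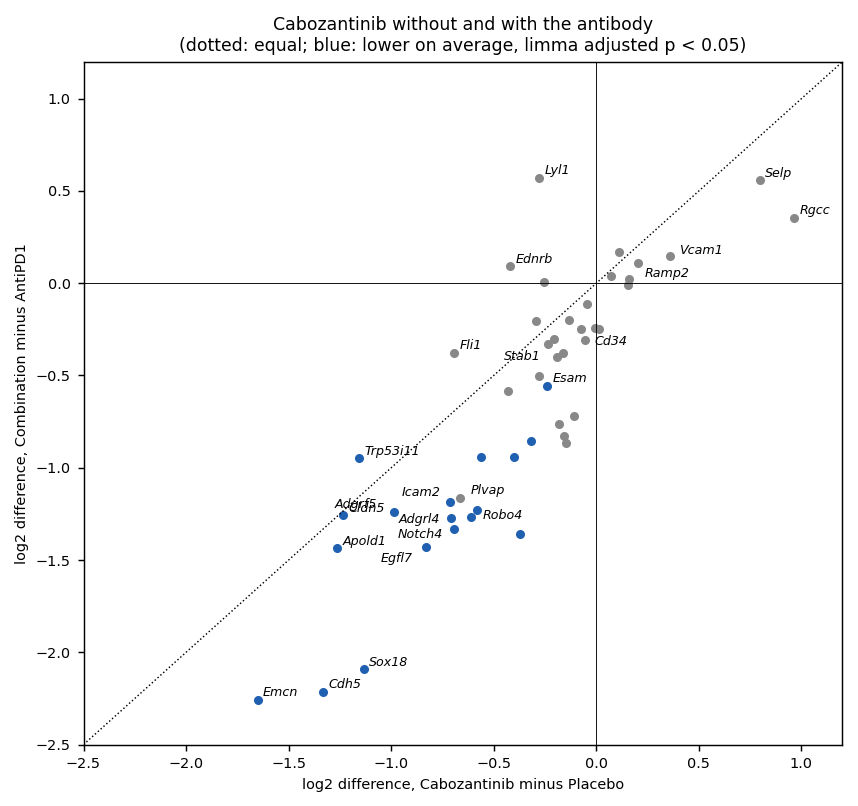
Log2 difference of each of the 48 genes between Cabozantinib and Placebo (horizontal axis) and between Combination and AntiPD1 (vertical axis), with equality dotted. In 36 of 48 genes both differences are negative, and all 18 genes in blue, called lower on average, lie among them. The call used the mean of these same differences, which favours that place, so the place of the 18 is no separate result.

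The antibody alone went with higher signal of many of these genes, though no gene passed the test. Against Placebo, AntiPD1 tumours had 0 of 48 genes called by limma, where 0.0292% of all genes were called, 0.0175% higher. At an unadjusted p below 0.05 there were 29, of which 27 were higher, 60.4% of the list against 19.2% of all genes. The difference was positive in 42 of 48 genes with a median of 0.58, against -0.03 over all genes. AntiPD1 lay wholly above Placebo in 18 genes, 37.5% of the list against 9.22% of all genes, and wholly below it in 1, Jag1, 2.08% against 12.3%. Among the 18 were Cdh5 (1.18 ± 0.23, adjusted p = 0.111), Stab1 (1.53 ± 0.36, adjusted p = 0.119), Vwf (1.32 ± 0.33, adjusted p = 0.127) and Mmrn2 (1.24 ± 0.27, adjusted p = 0.111). With array weights, which gave AntiPD1 tumour 1 the largest weight (3.23), 21 genes were called, 19 of them higher, but 10.7% of all genes were called as well. The count was 1 without AntiPD1 tumour 3 and 2 with the arrays of these groups alone.

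With this, the AntiPD1 group held the highest mean of the 4 groups in 35 of the 48 genes. These include all 18 that fell with cabozantinib, but a high AntiPD1 mean favours that call, so this is no separate result. Among the 30 genes not called it was 17. The Cabozantinib group held the lowest mean in 32 of 48. Neither count was set against all genes. Markers of other cells moved with the AntiPD1 group. The macrophage score, over 14 markers, all measured and none under 4.92 in every group, ran from 0.34 to 0.76 in AntiPD1 tumours and from 0.52 to 1.2 in Combination tumours. It ran from -1.41 to -0.20 in Placebo tumours and from -1.93 to 0.46 in Cabozantinib tumours. With that score as a covariate, chosen after seeing the data, the AntiPD1 difference was positive in 35 of 48 genes instead of 42, and its median was 0.38. Cdh5 moved little, to 1.07 ± 0.29, while Cd34 and Fli1 moved to -0.064 ± 0.63 and -0.036 ± 0.19, and 0 genes were called. AntiPD1 tumours lay wholly above Placebo tumours on the macrophage score, so this fit cannot separate the score from the antibody. 

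Other marker lists differed between these groups as well. The fibroblast score, over 9 markers, all measured and none under 4.92 in every group, ran from 0.16 to 0.96 in AntiPD1 tumours and from -1.16 to -0.088 in Placebo tumours. It ran from 0.44 to 0.83 in Combination and from -1.3 to 0.95 in Cabozantinib tumours. The score of 3 measured Y-linked genes ran from 0.43 to 0.77 in AntiPD1 and from -0.89 to 0.088 in Placebo tumours, and from 0.25 to 1.0 in Combination and from -1.02 to 0.15 in Cabozantinib tumours. On both scores AntiPD1 thus lay wholly above Placebo, and on the Y-linked score Combination lay wholly above Cabozantinib. The lymphocyte score, over 9 of 12 markers measured with Cd79a and Ncr1 near background, overlapped, from 0.022 to 0.62 in AntiPD1 and from -0.40 to 0.14 in Placebo tumours. So did the platelet score, from 0.062 to 0.51 and from -0.45 to 0.28, and of its 7 markers 4 (Gp1bb, Gp9, Gp6 and Treml1) were not shown to be above background in any group. Pf4, a platelet chemokine, had means of 9.36 ± 0.93 in the Placebo tumours (SD, n = 4) and 11.15 ± 0.21 in the AntiPD1 tumours (SD, n = 3), a difference of 1.79 ± 0.47 that was not called (adjusted p = 0.127 by limma). The part of these other cells in the differences of the list was not tested.

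Added to cabozantinib, the antibody was followed by 0 calls among the 48 genes, where 0.00585% of all genes were called. At an unadjusted p below 0.05 there were 17, of which 12 were higher, 35.4% of the list against 22.5% of all genes. The count of calls was 9 without Cabozantinib tumour 3 and 7 with array weights. No count is given without the arrays rich in muscle or fat, where Combination tumour 3 stood alone in its group. Combination lay wholly above Cabozantinib in 4 genes (Fli1, Adgrl4, Ptprb and Stab1), 8.33% of the list against 2.05% of all genes. It lay wholly below in 2 (Podxl and Calcrl), 4.17% against 3.05%. The largest positive differences were those of Fli1 (1.47 ± 0.39, adjusted p = 0.0787), Cd34 (1.46 ± 0.70, adjusted p = 0.233), Stab1 (1.45 ± 0.32, adjusted p = 0.0742) and Lyl1 (1.39 ± 0.33, adjusted p = 0.0752), genes that blood cells or macrophages also express. With the macrophage score as a covariate these became 0.12 ± 0.19, -0.55 ± 0.62, 0.69 ± 0.34 and 0.62 ± 0.36, and the median over the list went from 0.23 to -0.018. Combination tumours lay wholly above Cabozantinib tumours on that score, so the fit cannot separate it from the antibody. The part of macrophages was not tested. AntiPD1 against Placebo and Combination against Cabozantinib share no array, and both were positive in 37 of 48 genes (77.1%, against 29.7% of all genes). Across the list their correlation was 0.722, below the 0.803 over all genes.

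Tumours given both drugs had genes called in either direction against Placebo. Against Placebo, the Combination group had 8 genes lower and 3 higher, 22.9% of the list, where 10.4% of all genes were called. The lower genes were Cdh5 (-1.04 ± 0.21, adjusted p = 0.0177), Apold1 (-1.15 ± 0.16, adjusted p = 0.00789), Emcn, Trp53i11, Egfl7, Notch4, Calcrl and Esam, 16.7% of the list against 6.64% of all genes. The higher genes were Rgcc (1.54 ± 0.36, adjusted p = 0.024), Stab1 (1.21 ± 0.33, adjusted p = 0.0383) and Vcam1 (0.83 ± 0.23, adjusted p = 0.041), 6.25% against 3.71%, a share close to the background. Combination lay wholly below Placebo in 11 genes (22.9%, against 12.9% of all genes) and wholly above it in 6 (12.5%, against 7.94%). The count was 1 without Combination tumour 2, 3 without Placebo tumour 2 or 4, 5 without Placebo tumour 3 and 7 without Combination tumour 1, 3 or 4. With muscle and fat scores as covariates it was 4. With the macrophage score as a covariate it was 0, but Combination lay wholly above Placebo on that score, so the fit cannot separate the 2. No count is given without the arrays rich in muscle or fat, where Combination tumour 3 stood alone in its group. This comparison shares its Placebo arrays with Cabozantinib against Placebo.

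Calcrl is the one gene called lower with both drugs that was not called with cabozantinib averaged. Its difference was -0.53 ± 0.12 against Placebo (adjusted p = 0.0208) and -0.39 ± 0.11 against Cabozantinib (adjusted p = 0.0855), and all 4 Combination tumours lay below every tumour of both groups. The AntiPD1 difference from Placebo was -0.33 ± 0.13 (adjusted p = 0.196).

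Other vessel genes fell as well. Of 30 further endothelial receptors and angiogenic genes, all measured, 10 fell with cabozantinib averaged over the antibody and 0 rose. Of all genes, 1.26% fell and 0.86% rose in that comparison. Esm1, a tip cell proteoglycan induced by VEGF, read 6.11, 6.85, 6.70 and 7.25 in the Placebo tumours, 7.82, 8.31 and 8.64 in the AntiPD1 tumours, 4.54, 4.89, 4.47, 4.78 and 4.62 in the Cabozantinib tumours and 5.11, 4.45, 4.90 and 4.78 in the Combination tumours. All tumours given cabozantinib lay below all others, with a difference of -2.76 ± 0.16 (adjusted p = 7.4e-07). Both cabozantinib group means of Esm1 (4.66 and 4.81) were under 4.92, so the floor of the array limits that value. Gpihbp1, the capillary anchor of lipoprotein lipase, had a difference of -2.71 ± 0.20 (adjusted p = 1.46e-05), and Kdr, the main VEGF receptor of endothelium, -1.55 ± 0.23 (adjusted p = 0.00273). Apln, Cd93, Tie1, Efnb2 and Angpt2 also fell, with differences of -1.20, -1.15, -0.90, -0.89 and -0.74. The same limit holds for Gpihbp1 in the Combination group, Efnb2 in the Cabozantinib group and Tie1 in both. Flt1, another VEGF receptor, was not called, with 0.049 ± 0.17 (adjusted p = 0.933).

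Of the genes that serve junctions or Notch signalling in many cell types, 1 of 17 and 1 of 12 measured were called. Among them Ocln, Hey2 and Notch2 were not shown to be above background in any group. The counts here stand beside 1.26% of all genes called lower and 0.86% called higher. Of 17 measured junction partners, such as the catenins and zonula occludens proteins, 0 fell and 1 rose, F11r, a junctional adhesion molecule shared with epithelium (0.33 ± 0.08, adjusted p = 0.0496), and their median difference was 0.025. Ctnnb1, the catenin that binds the tail of VE-cadherin, had 0.006 ± 0.034 (adjusted p = 0.956). Of 12 Notch partners 1 fell, Nrarp, a target of Notch in sprouting vessels (-0.98 ± 0.18, adjusted p = 0.0125). Both cabozantinib group means of Nrarp (4.59 and 4.70) were under 4.92, as was the Cabozantinib mean of Higd1b. Markers of pericytes, the mural cells of capillaries, and of smooth muscle had 3 of 10 lower (Rgs5, Kcnj8 and Higd1b, at -0.79, -0.59 and -1.01). The red cell genes Hbb-b2 and Hba-a1, 2 of 4 measured, fell with differences of -2.98 and -2.78. Cnn1 of smooth muscle and the red cell genes Alas2 and Slc4a1 were not shown to be above background in any group. Of the 6 lymphatic markers measured 0 were called, and Reln and Sema3d were not shown to be above background.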

How the data were processed

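Each of 16 tumours was measured on 1 Affymetrix mouse array. The log2 probe set signals were used as deposited, and the submitters' processing notes name RMA and affy 1.62.0, without settings. Genes and lists were chosen with earlier results of these data known. Of 45141 probe sets, 28898 had 1 gene, and the brightest on average was kept for each of 17097 genes. Limma 3.58.1 in R 4.3.3 (lmFit and eBayes) fitted 4 group means to all arrays with no covariate. Each comparison's p-values were corrected by the Benjamini-Hochberg method across the 17097 genes, with 0.05 as the threshold. The ± on a difference is its standard error. Values in every array were given for the 12 called genes with the largest averaged difference and for up to 3 genes a role with the smallest. Of other vessel genes, up to 8 called ones and Esm1, Kdr and Flt1 were named. On simulated arrays with 200 changed genes of 17097, the averaged comparison recovered 71.6% of log2 changes of 0.5, 94% of 1 and 100% of 2. It also made 9 false calls. The labels do not state that each tumour came from a separate mouse, so p-values measure the spread between these samples. The number of arrays limits the precision. Alternatives were quantile normalisation, the mean of all probe sets, a filter on dim genes, array weights, the compared groups alone, left-out arrays, a title number as a block and, chosen after seeing the data, tissue scores as covariates.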

Additional observations from a re-analysis of the deposited data

Results flagged for a closer look

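Each gene's highest and lowest tumour was set against the other tumours of its group in the 3 groups of 4 or 5 tumours, 144 sets of values in all, and 8 stood apart by Dixon's criterion at the 95% level, a rate that chance alone gives in about 5% of sets. Among genes that fell with cabozantinib, Cabozantinib tumour 4 was high for Icam2, at a log2 signal of 6.95 (next 6.39), and for Emcn, at 6.279 (next 5.36). Cabozantinib tumour 4 was also high for Selp, which was not called, at 7.88 (next 5.36). Its muscle score was 4.01, and the part of muscle in these values was not tested. Cabozantinib tumour 2, with a fat score of 2.44, was high for Robo4, at 4.959 (next 4.46). Combination tumour 2 was low for Emcn, at 5.792 (next 6.10). In the Placebo group, tumour 4 was high for Apold1, at 7.004 (next 6.56), tumour 1 for Ets1, at 9.898 (next 9.64), and tumour 3 for Clec14a, at 4.528 (next 4.21), a level not shown to be above background.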

How the results depend on the processing

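The counts of called genes moved with the arrays used, their weights and the covariates. Without the 7 arrays rich in muscle or fat, 9 arrays remained and Combination tumour 3 stood alone in its group. No counts are given there for comparisons with that group, cabozantinib averaged included. For Cabozantinib against Placebo the count without those arrays was 3 of 5. With array weights it was 19 for Combination against AntiPD1, 21 for AntiPD1 against Placebo and 7 for Combination against Cabozantinib. With only the groups compared it was 0 for Cabozantinib against Placebo, 7 for Combination against AntiPD1 and 2 for AntiPD1 against Placebo. With muscle and fat scores as covariates, chosen after seeing the data, it was 1 for AntiPD1 against Placebo and 4 for Combination against Placebo, which had 0 with the macrophage score. The cause was not tested. With cabozantinib averaged, all settings that kept the 16 arrays gave 18 to 22. Leaving out each array in turn gave 15 to 20 for cabozantinib averaged, 2 to 6 for Cabozantinib against Placebo, 2 to 16 for Combination against AntiPD1, 0 to 1 for AntiPD1 against Placebo, 0 to 9 for Combination against Cabozantinib and 1 to 15 for Combination against Placebo; the interaction stayed at 0. Of 8269 values for single genes over these settings and comparisons, 259 changed sign, 0 of them past the threshold. Some tumours share a number in their titles, within or across groups, and no label says what it marks. Used as a random block (correlation -0.103), it gave 18 calls with cabozantinib averaged, 5 for Cabozantinib against Placebo, 12 for Combination against AntiPD1, 11 for Combination against Placebo and 0 for the others, the same counts as without it. Genes near 4.92 have differences limited by the floor of the array.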
